A study of Mus musculus with 32 samples.

Results

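Enzymes that break down amino acids were followed across 32 mouse kidneys. The group was a list of 38 genes chosen by function, with 6 routes: aromatic amino acids, branched-chain amino acids, lysine, glycine and its neighbours, proline with glutamate and arginine, and sulfur amino acids. Of these, 35 had a named probe set and are described here, out of 15780 named genes tested. Amt, Gcsh and Agxt2, all of the glycine route, were not measured here, which left 6 of the 9 genes of that route.

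Whole kidneys of lupus-prone mice were measured on Affymetrix arrays, 1 kidney sample per array, in 5 groups. The 30-week group held 7 kidneys of untreated NZB/W mice that were 30 weeks old and had no proteinuria. All other mice were in remission. Triple therapy consisted of CTX (cyclophosphamide), CTLA4Ig, which blocks T cell costimulation, and an antibody to CD154, and it was given to the NZB/W mice of the early remission group (8 kidneys) and of a late remission group (6 kidneys, replicates 6 to 11). The other late remission group held 5 kidneys of NZB/W mice given Ad-TACI-Ig, an adenovirus encoding a soluble receptor for BAFF and APRIL, with CTLA4Ig, and is called the TACI-Ig group below. The NZM2410 group held 6 kidneys of NZM2410 mice in remission after Ad-BAFF-R-Ig, which encodes a soluble receptor for BAFF. The labels give no sex, and an age only for the 30-week group. The NZM2410 kidneys differed from each NZB/W group in strain and treatment together, so these cannot be told apart, and early triple therapy and late TACI-Ig kidneys differed in time and treatment together. Kidneys with nephritis are not analysed here.

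Most of these enzymes act in routes that remove the amino group of amino acids and oxidize their carbon skeletons, many of them in mitochondria. The carbon ends largely as intermediates of the citric acid cycle or as ketone bodies. In the kidney these enzymes lie largely in the proximal tubule, which reabsorbs filtered amino acids and burns some of them. The kidney is also known as a main site where glycine and arginine are joined to make the precursor of creatine, a step carried out by Gatm.

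The start regions of 4 members are printed because the results below turn on these genes. Hpd and Gatm had the largest differences among NZB/W groups. Gcdh passed the test between late and early triple therapy kidneys and in both NZM2410 comparisons. These 3 calls are not separate observations, as explained below. Aldh4a1 was the only member that passed in the downward direction in NZM2410 kidneys, with the deposited values and the test described below. Each sequence holds the 200 bases just before the annotated start of transcription, 5′ to 3′ on the gene's strand, from RefSeq on GRCm38.p6 (the C57BL/6J reference, not the strains studied). Capitals mark the letters GGGCGG and CCAAT on either strand, the core of the GC box and of the CCAAT box; they are matches of letters, not known sites.
Hpd, chr5:123182724-123182923, minus strand: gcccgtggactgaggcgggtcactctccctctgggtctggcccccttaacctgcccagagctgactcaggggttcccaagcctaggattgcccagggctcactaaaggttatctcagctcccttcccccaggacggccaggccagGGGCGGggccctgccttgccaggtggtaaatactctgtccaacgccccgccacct
Gatm, chr2:122611278-122611477, minus strand: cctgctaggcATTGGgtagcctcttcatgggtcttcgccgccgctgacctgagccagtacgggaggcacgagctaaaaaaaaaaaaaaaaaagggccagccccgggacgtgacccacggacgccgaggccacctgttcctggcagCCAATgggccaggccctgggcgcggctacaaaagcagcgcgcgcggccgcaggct
Gcdh, chr8:84893922-84894121, minus strand: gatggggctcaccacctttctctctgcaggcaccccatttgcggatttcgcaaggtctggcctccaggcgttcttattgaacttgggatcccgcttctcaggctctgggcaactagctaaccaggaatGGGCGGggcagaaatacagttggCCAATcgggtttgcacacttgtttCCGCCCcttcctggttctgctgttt
Aldh4a1, chr4:139622694-139622893, plus strand: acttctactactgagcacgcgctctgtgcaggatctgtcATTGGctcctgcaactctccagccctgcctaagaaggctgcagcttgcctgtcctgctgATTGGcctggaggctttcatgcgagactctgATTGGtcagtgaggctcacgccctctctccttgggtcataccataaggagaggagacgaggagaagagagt

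In these 200 bases Hpd held 1 GGGCGG and no CCAAT, Gatm held 2 CCAAT, Gcdh held 2 GGGCGG and 1 CCAAT, and Aldh4a1 held 3 CCAAT. Start regions were found for 31 of the 35 measured members, as 36 windows, since some genes have several starts. In the 250 bases before the start, GGGCGG was present in 44.4% of these windows and in 32.7% of all 32851 windows, and CCAAT in 55.6% against 33.8%. The 2 motifs share no full copy of each other, and no test was made of these shares. Dbt, Arg2, Cth and Acat1 had no entry.

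A few facts of the whole series bear on the members. Array medians lay between 7.02 and 7.16 on the log2 scale. The spread of values within an array was wider in NZM2410 kidneys (SD over probe sets 2.12 to 2.18) than in NZB/W kidneys (1.91 to 2.04), and bright probe sets tended to read higher in NZM2410 kidneys, as counted below. The mean of the late triple therapy kidneys lay within 0.0255 of the pooled mean of the 12 kidneys in the 30-week and TACI-Ig groups in each of 15780 genes, and within 0.00678 in each member, so its differences from other groups follow from those groups and are not separate observations. The methods state that arrays were batch-corrected together without naming the batches. Scores of 9 adrenal genes differed between groups. The 30-week kidneys had a mean score of 1.14 ± 1.43 (SD, n = 7) and the early remission kidneys one of 0.40 ± 1.32 (SD, n = 8), with single kidneys from -1.44 to 2.04. The mean was 0.22 ± 0.12 (SD, n = 6) in late triple therapy, -1.09 ± 0.05 (SD, n = 5) in TACI-Ig and -1.17 ± 0.08 (SD, n = 6) in NZM2410 kidneys. All 9 were lower in NZM2410 than in 30-week kidneys (median difference -2.73), and in TACI-Ig kidneys 9 of 9 were lower than at 30 weeks and than in early remission at an unadjusted p under 0.05, none after adjustment. Adrenal genes were not alone. Scores of 5 adipose genes averaged 0.49 ± 0.28 (SD, n = 7) at 30 weeks, -0.12 ± 0.78 (SD, n = 5) in TACI-Ig and -1.38 ± 0.77 (SD, n = 6) in NZM2410 kidneys. Those of 3 B cell and plasma cell genes averaged -1.83 ± 0.34 (SD, n = 6) in NZM2410 kidneys and from 0.37 to 0.54 in the NZB/W groups. The part of such content in the members' differences was not tested. Replicate 6 of the 30-week group and replicate 1 of early remission carry the same mouse code in their sample names. The proximal tubule was well represented by its marker Slc34a1, a phosphate transporter, which lay between 12.13 and 13.50 in all kidneys. In whole kidneys, fewer cells of a type and less RNA per cell cannot be told apart.

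To view the members together, log2 values were centred on each gene's mean over 32 kidneys and averaged over the list. Since the list was chosen with earlier results known, these scores carry no test. The score of all 35 members was above 0 in 8 of 8 early remission kidneys (0.02 to 0.22) and in 5 of 6 NZM2410 kidneys (-0.09 to 0.27). It was below 0 in 5 of 6 late triple therapy kidneys (-0.24 to 0.13) and in 4 of 5 TACI-Ig kidneys, where the values were -0.38, 0.10, -0.30, -0.14 and -0.34 in replicates 1 to 5. The 30-week kidneys ran from -0.29 to 0.12 with a median of -0.003, and the lowest was replicate 2. The early remission kidneys thus had the highest mean among NZB/W groups, 0.13 ± 0.07 (SD, n = 8), with a range that overlapped those of the other groups.

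**Figure D1:**
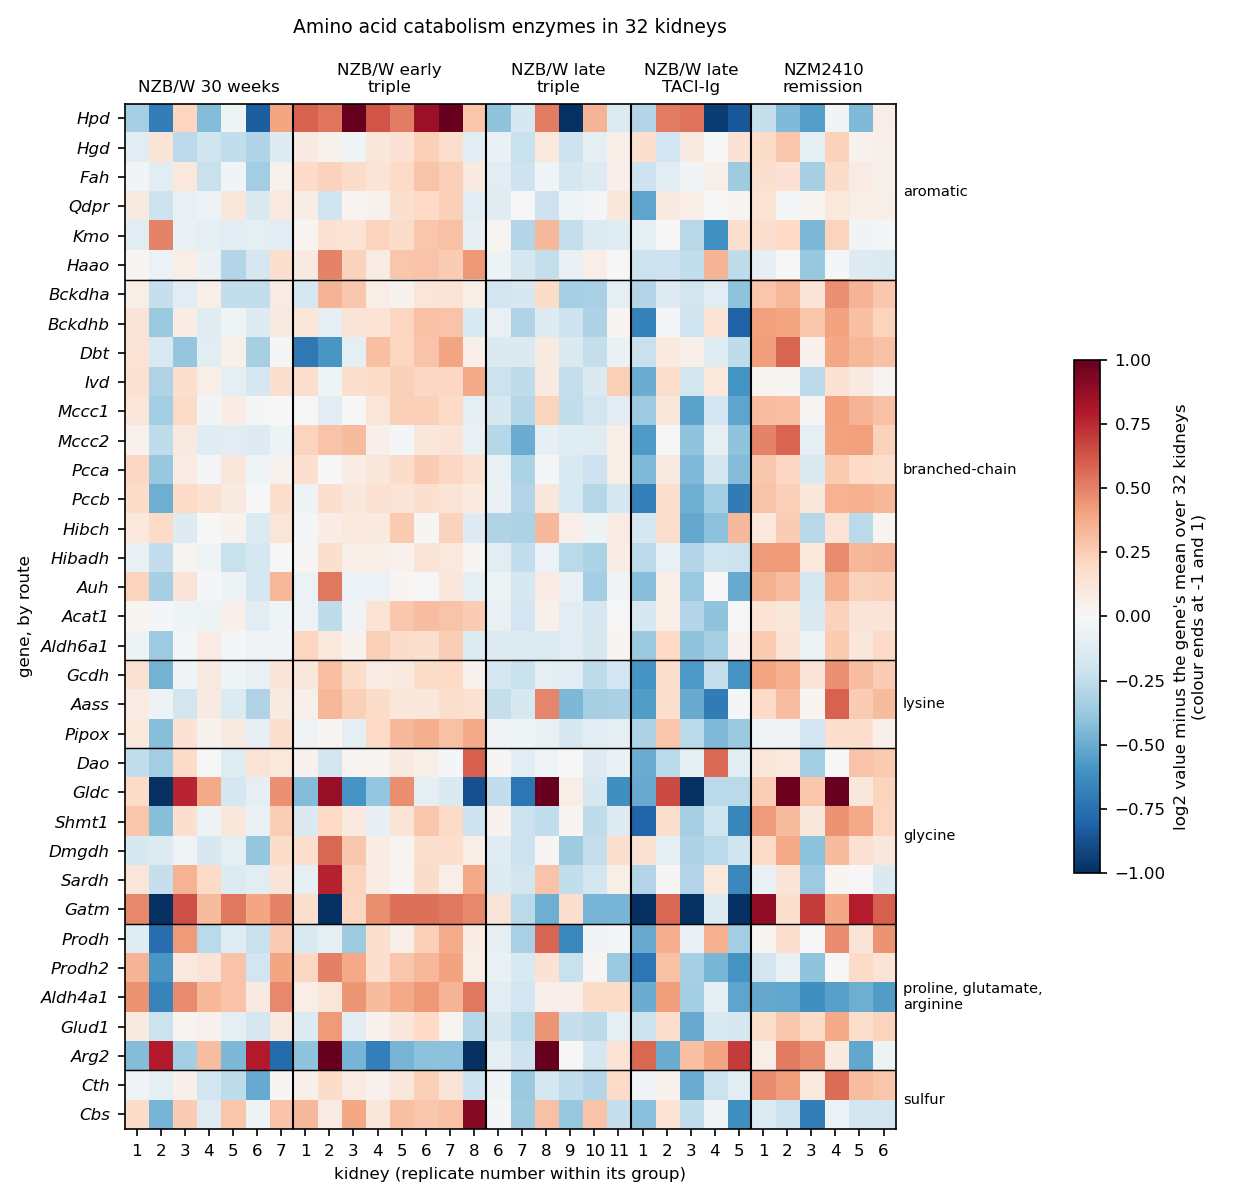
Colour gives the log2 value of each of 35 enzymes (rows, by route) in each of 32 kidneys (columns, by group and replicate number) minus the gene's mean over all kidneys, with the scale ending at -1 and 1. Early remission kidneys are mostly red, TACI-Ig replicates 1, 3 and 5 mostly blue, and in NZM2410 kidneys the branched-chain rows are mostly red except in replicate 3 while Aldh4a1 is blue in 6 of 6.

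The routes did not share one order of groups. The aromatic score had its highest group mean in early remission, 0.24 ± 0.10 (SD, n = 8), and was -0.10 ± 0.12 (SD, n = 7) in 30-week kidneys and -0.03 ± 0.15 (SD, n = 6) in NZM2410 kidneys. The branched-chain score was highest in NZM2410 kidneys, 0.22 ± 0.13 (SD, n = 6), and was 0.10 ± 0.08 (SD, n = 8) in early remission. Glycine route scores in TACI-Ig kidneys averaged -0.34 ± 0.38 (SD, n = 5), with the lowest kidney at -0.65 and the highest at 0.18. The proline, glutamate and arginine score differed little between groups, with means from -0.10 to 0.07 and SDs from 0.09 to 0.25.

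**Figure D2:**
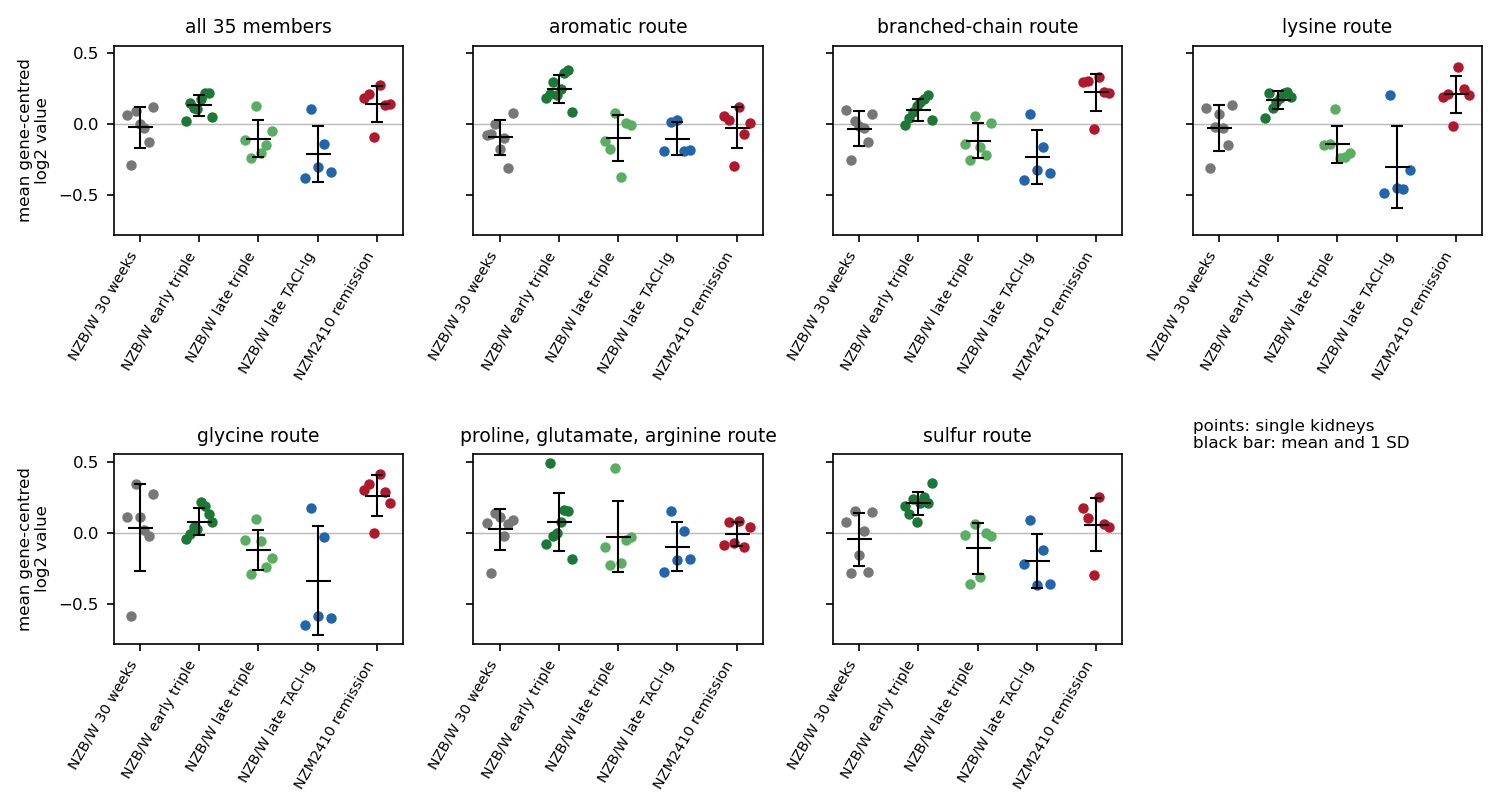
Points give the mean gene-centred log2 value of all 35 members and of each route in single kidneys of the 5 groups, and black bars give the mean and 1 SD. The 8 early remission kidneys lie above 0 for the aromatic, lysine and sulfur routes and for all members together, and NZM2410 kidneys have the highest means for the branched-chain, lysine and glycine routes.

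Early remission after triple therapy was first compared with untreated 30-week kidneys. No member passed the test in either direction, and 0 of the 15780 genes did (0.0% in each direction). Of the 35 members, 32 had a higher mean in early remission and 3 a lower one, where the shares of all genes were 59.6% and 40.4%, and the median log2 difference was 0.16 against 0.02 over all genes. At an unadjusted p under 0.05, 14 members were higher and none lower, where 5.42% of all genes were higher and 3.37% lower. Among these 14 were 4 of the 6 aromatic, 5 of the 13 branched-chain, 2 of the 3 lysine, 1 of the 6 glycine and both sulfur enzymes. The groups overlapped for every member, and were apart, with early remission higher, for 0.0634% of all genes. Most members read bright: 33 had a mean log2 value of at least 9. Genes that bright were not counted apart in this comparison, so the shares of all genes are not a like background.

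Hpd, which turns the tyrosine product hydroxyphenylpyruvate into homogentisate, had the largest difference. Its log2 value ran from 10.24 to 11.46 (median 10.73) at 30 weeks and from 11.34 to 12.31 (median 11.67) in early remission. The groups met only in 30-week replicate 7 at 11.46 and early remission replicate 8 at 11.34. The difference was 0.96 (SE 0.18, adjusted p = 0.127), a fold of 1.95, and it missed the threshold. Leaving out each kidney in turn, without weights, gave adjusted p from 0.0542 to 0.269. With array weights and all kidneys it passed (adjusted p = 0.0184). Fah, which carries out the last step of tyrosine breakdown, ran from 11.39 to 11.84 (median 11.71) at 30 weeks and from 11.83 to 12.02 (median 11.93) in early remission, and the groups met only in 30-week replicate 3 and early remission replicate 8. Its difference was 0.28 (SE 0.06, adjusted p = 0.167). Hgd, which opens the ring of homogentisate, differed by 0.24 (SE 0.07, adjusted p = 0.255). Haao, of the kynurenine route of tryptophan, differed by 0.32 (SE 0.07, adjusted p = 0.196). After quantile normalization again, Hpd, Fah, Hgd and Haao differed by 0.90, 0.18, 0.15 and 0.28, and none passed.

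At the other end was Arg2, the mitochondrial arginase that splits arginine into ornithine and urea, with a difference of -0.32 (SE 0.33, adjusted p = 0.818). Its values ran from 8.22 to 9.78 (median 8.65) at 30 weeks and from 7.67 to 10.48 (median 8.55) in early remission, and the high value of the latter was replicate 2 alone. In that kidney Gatm, which uses arginine and glycine to begin creatine synthesis, was at 9.88 while the other 7 lay between 12.32 and 12.70. The difference of Gatm between the groups was -0.12 (SE 0.39, adjusted p = 0.953), with a 30-week range of 10.77 to 12.79 (median 12.63). The lowest of these was again 1 kidney, replicate 2. Leaving out the pair with a shared mouse code, or using only kidneys with the name letters BG, gave 0 calls as well.

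Late remission after triple therapy was compared with early remission under the same treatment. Of the 35 members, 33 had a lower and 2 a higher mean in late remission, where 54.8% and 45.2% of all genes did. Gcdh and Fah passed the test as lower, 2 members where 0.0697% of all genes (11) passed, and none passed as higher (0.0% of all genes). At an unadjusted p under 0.05, 25 members were lower and none higher, where 3.81% of all genes were lower and 1.5% higher. The median difference of the members was -0.26 and that of all genes -0.01. Bright genes were not counted apart here either. After quantile normalization again, Gcdh and Fah differed by -0.20 and -0.17. The groups did not overlap for 3 members, Gcdh, Fah and Haao, all lower, where 0.222% of all genes were apart in that direction and 0.0317% in the other. Because of the near-equality of means given above, this comparison in effect sets early kidneys against the 30-week and TACI-Ig kidneys. Its p-values, however, use the spread among the early and the late triple therapy kidneys. Neither Gcdh nor Fah passed when early kidneys were compared with 30-week or with TACI-Ig kidneys themselves.

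Gcdh, the glutaryl-CoA dehydrogenase shared by the lysine and tryptophan routes, ran from 11.45 to 11.72 (median 11.56) in early remission and from 11.16 to 11.32 (median 11.24) in late remission. All late kidneys lay below all early ones, with a difference of -0.32 (SE 0.05, adjusted p = 0.0301). Fah ran from 11.53 to 11.79 (median 11.62) in late remission, again below every early kidney, and differed by -0.29 (SE 0.05, adjusted p = 0.0454). Haao differed by -0.35 (SE 0.07, adjusted p = 0.0940) without passing, and Prodh2, the hydroxyproline dehydrogenase, by -0.40 (SE 0.08, adjusted p = 0.0940). Hpd had the most negative difference, -0.95 (SE 0.25, adjusted p = 0.296), and its late values were spread from 9.52 to 11.58 (median 10.92). Arg2 again stood at the other end with 0.45 (SE 0.32, adjusted p = 0.9998); in late replicate 8 it was 10.02 and in the others 8.78 to 9.13.

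Both calls were sensitive to the kidneys used and to the fit. No member was called in the joint fit of all groups, after quantile normalization again, or without any 1 of early replicates 3 to 7 or late replicates 6, 7, 9 and 10. There was 1 call without early replicate 1 (0.0824% of all genes) or late replicate 11 (0.0253%). Without early replicate 2, early replicate 8 or late replicate 8, 3, 4 and 5 members were lower, where 0.171% of all genes were each time. With array weights 9 were lower, where 0.380% of all genes were.

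Late remission after TACI-Ig and CTLA4Ig was compared with 30-week and with early remission kidneys. Against 30 weeks, 30 of 35 members had a lower mean and 5 a higher one, where 41.3% and 58.7% of all genes did, with a median difference of -0.15 (0.04 over all genes). None passed the test, and 0.0% of all genes did in either direction. At an unadjusted p under 0.05, 8 members were lower, where 9.67% of all genes were, and 1 higher (Hgd), where 10.7% were. Against early remission, 34 of 35 had a lower mean and 1, Arg2, a higher one, where 45.8% and 54.2% of all genes did, with a median of -0.33 (0.01 over all genes). Here too no member and no other gene passed, while 25 members were lower and none higher at an unadjusted p under 0.05, where 8.52% and 6.29% of all genes were. The groups did not overlap for 2 members, Fah and Hibadh, where 0.234% of all genes were lower in this way. Their differences from early remission were -0.32 and -0.28, and -0.18 and -0.13 after quantile normalization again. Bright genes were not counted apart in either TACI-Ig comparison.

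The TACI-Ig kidneys were split among themselves. Gatm was 10.20, 12.72, 11.06, 12.01 and 10.43 in replicates 1 to 5, so that replicates 1, 3 and 5 were low and replicate 2 was as high as the 30-week kidneys. It differed by -1.07 (SE 0.43, adjusted p = 0.213) from 30 weeks and by -0.95 (SE 0.49, adjusted p = 0.383) from early remission. Gcdh was 10.83, 11.59, 10.84, 11.18 and 10.83, with replicate 2 again the highest, and differed by -0.51 (SE 0.11, adjusted p = 0.131) from early remission. Aldh4a1, which oxidizes the glutamate semialdehyde formed from proline, was 10.35, 11.27, 10.51, 10.76 and 10.33, in the same order of kidneys as Gatm except for the lowest pair. Prodh2 was 8.33, 9.34, 8.72, 8.59 and 8.45 and differed by -0.65 (SE 0.14, adjusted p = 0.131) from early remission. Arg2 went the other way among these kidneys, at 9.56, 8.49, 9.29, 9.38 and 9.69, the lowest being replicate 2, and differed by 0.63 (SE 0.34, adjusted p = 0.406).

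The calls turned on replicate 2 of this group and, against early remission, on the fit too. In that kidney 31 of 35 members lay above the mean of the other TACI-Ig kidneys, with a median of 0.39. Without it, 7 members passed the test as lower than at 30 weeks (Pcca, Shmt1, Gcdh, Prodh2, Pccb, Gatm and Mccc1), where 5.02% of all genes did, and the differences of Gatm and Prodh2 were -1.43 and -0.60. Against early remission, 17 members then passed as lower, where 4.39% of all genes did. With all TACI-Ig kidneys kept, 15 passed in the joint fit (1.70% of all genes) and 9 with array weights (0.678%).

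The treatments were then compared in late remission. No member passed the test between them and 12 of all genes did, all higher after triple therapy (0.076%). At an unadjusted p under 0.05 there were 0 members, where 0.33% of all genes were higher and 0.209% lower. Against 30 weeks, none passed in late remission after triple therapy; 30 means were lower and 5 higher (41.2% and 58.8% of all genes), with a median difference of -0.06, and 0 were past an unadjusted p of 0.05, where 0.057% of all genes were higher and 0.234% lower. The differences ran from -0.44 (Gatm) to 0.13 (Arg2) against 30 weeks and from -0.18 (Arg2) to 0.63 (Gatm) against TACI-Ig. These follow from the equality of means given above.

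**Figure D3:**
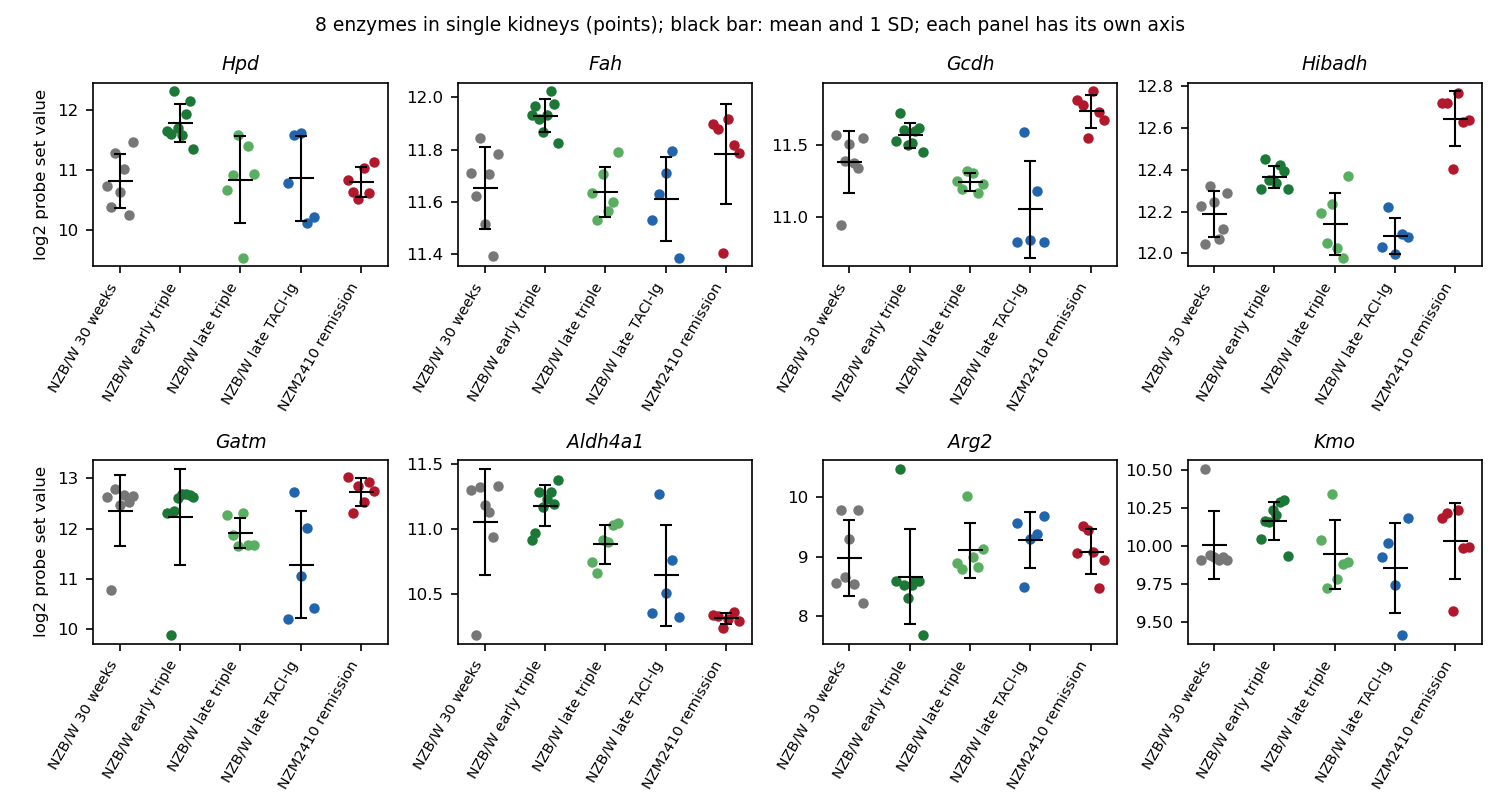
Points give the log2 probe set value of 8 enzymes in each kidney of the 5 groups, black bars the mean and 1 SD, and each panel has its own axis. Hpd, Fah and Gcdh have their highest NZB/W means in early remission, Gatm is low in 1 or more kidneys of 3 groups, Hibadh is highest in NZM2410 kidneys and Aldh4a1 lies between 10.24 and 10.37 in all 6 of them.

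NZM2410 kidneys in remission were compared with TACI-Ig and with 30-week NZB/W kidneys, a contrast of strain and treatment together. Against TACI-Ig kidneys, 18 members passed the test as higher and none as lower, and against 30-week kidneys 13 passed as higher and 1, Aldh4a1, as lower. These counts need the background, since most of the array differed: of all genes, 28.6% were higher and 30.9% lower against TACI-Ig, and 31.5% and 31.3% against 30 weeks. The members' probe sets read bright, and 33 of them had a mean log2 value of at least 9. Among the 2887 genes that bright, 42.2% were higher and 8.56% lower against TACI-Ig, and 38.7% and 12% against 30 weeks. The shares of members called higher, 51.4% and 37.1%, lie near these, so the counts as such are no result about the members. The median differences of the members were 0.31 and 0.22, against 0.18 and 0.12 in the bright genes and 0.00 and 0.02 in all genes. Groups did not overlap for 5 members in either comparison, where 16.1% and 16.5% of all genes were higher in this way.

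Setting all 32 arrays to 1 distribution by quantile normalization again lowered the members in these comparisons. Then 12 were higher and 1 lower than in TACI-Ig kidneys, and 6 higher and 3 lower than in 30-week kidneys, with median differences of 0.11 and 0.07. Of all genes, 24.5% were then higher and 23.3% lower against TACI-Ig, and 27.5% and 24.6% against 30 weeks. Median centring of each array gave 16 higher and 1 lower against TACI-Ig (22.3% and 35.7% of all genes), and 10 higher and 2 lower against 30 weeks (23.3% and 37.1%). The bright genes were not counted apart under these settings. Both comparisons share the NZM2410 kidneys, so the values are given side by side and do not support each other.

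**Figure D4:**
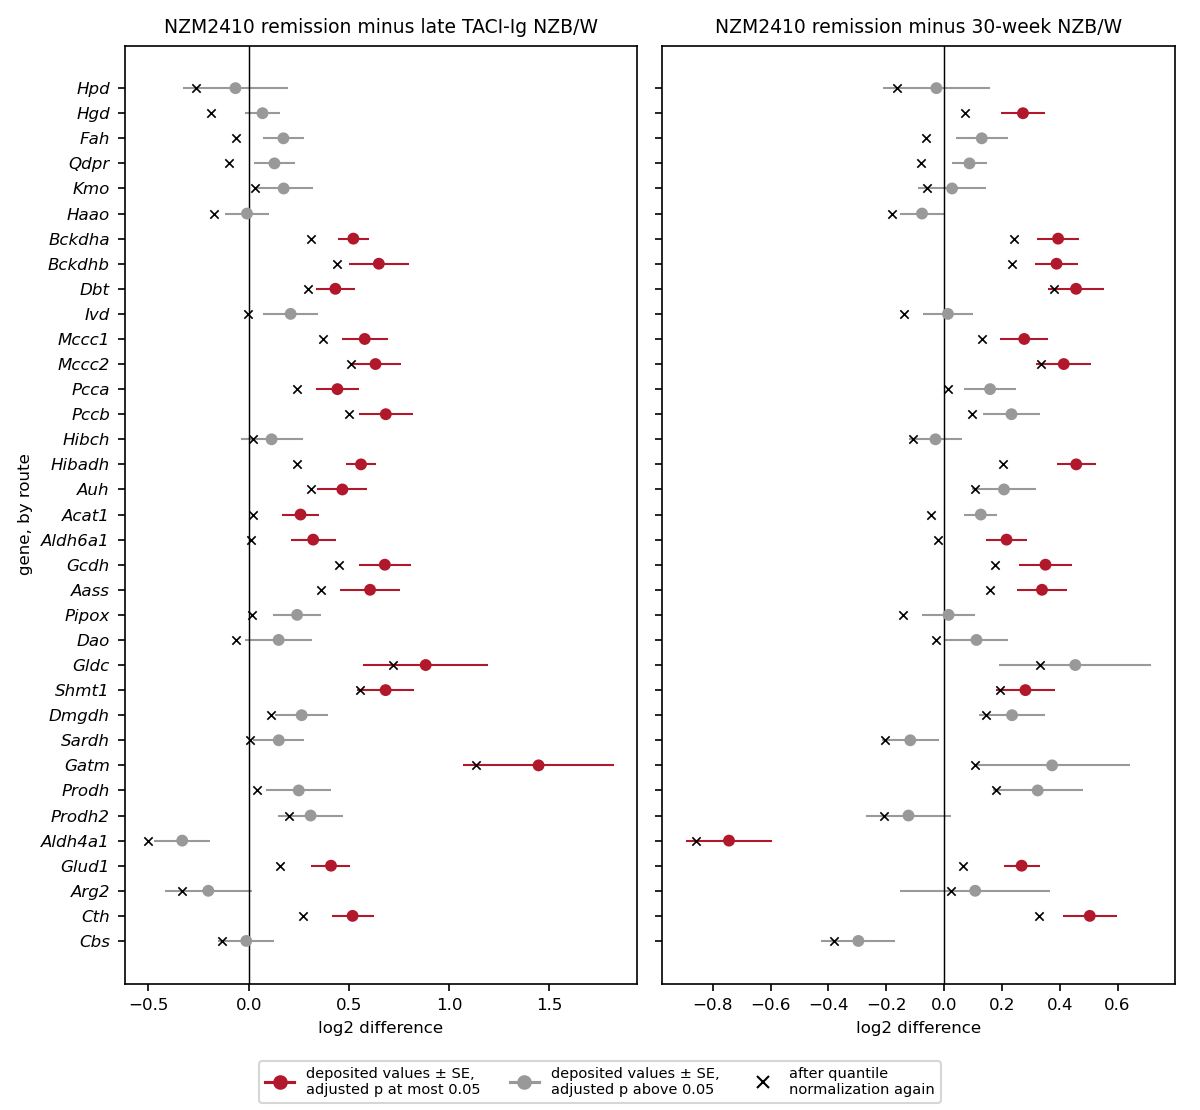
Filled points give the log2 difference of NZM2410 remission kidneys from TACI-Ig (left) and from 30-week (right) NZB/W kidneys with SE for 35 enzymes, red where limma's adjusted p was at most 0.05, and crosses the same difference after quantile normalization again. Most branched-chain enzymes lie to the right of 0, the aromatic ones near 0 and Aldh4a1 to the left, and the crosses lie to the left of their points.

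In the branched-chain route, 11 of 13 members passed as higher against TACI-Ig and 7 of 13 against 30 weeks, where 42.2% and 38.7% of the bright genes did. After quantile normalization again these were 8 and 5 of 13. Of all genes, 24.5% and 27.5% were then higher, while the bright genes were not counted apart under that setting, so these shares are not like those before. No test was made of the route as such. Its first committed step is the branched-chain ketoacid dehydrogenase. Bckdha, a subunit of its decarboxylase, ran from 10.78 to 11.12 (median 10.96) in NZM2410 kidneys and from 10.41 to 10.74 (median 10.54) at 30 weeks, and was 10.37, 10.52, 10.48, 10.55 and 10.26 in TACI-Ig kidneys. Every NZM2410 kidney lay above every kidney of both other groups. The differences were 0.52 (SE 0.08, adjusted p = 7.17e-05) from TACI-Ig and 0.39 (SE 0.07, adjusted p = 0.000286) from 30 weeks. Bckdhb, the other decarboxylase subunit, ran from 10.93 to 11.12 (median 11.05), from 10.33 to 10.84 (median 10.66) at 30 weeks, and was 10.03, 10.68, 10.51, 10.84 and 9.89 in TACI-Ig kidneys. It too showed no overlap, with differences of 0.65 (SE 0.15, adjusted p = 0.00221) and 0.39 (SE 0.08, adjusted p = 0.000415). Dbt, the transacylase core of the complex, ran from 9.81 to 10.35 (median 10.13) and from 9.38 to 9.90 (median 9.66) at 30 weeks, was 9.55, 9.86, 9.82, 9.64 and 9.51 in TACI-Ig kidneys, and overlapped with both. It differed by 0.43 (SE 0.10, adjusted p = 0.00190) and 0.46 (SE 0.10, adjusted p = 0.000774). These 3 subunits were called higher in both comparisons, and also after quantile normalization again.

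Of the leucine enzymes, Mccc1 and Mccc2 make up methylcrotonyl-CoA carboxylase. Mccc1 ran from 10.95 to 11.35 (median 11.25) in NZM2410 kidneys and from 10.60 to 11.13 (median 10.94) at 30 weeks, and was 10.58, 11.05, 10.40, 10.75 and 10.41 in TACI-Ig kidneys. It differed by 0.58 (SE 0.11, adjusted p = 0.000777) and by 0.28 (SE 0.08, adjusted p = 0.00912), and the call against 30 weeks was lost after quantile normalization again (0.13, adjusted p = 0.172). Mccc2 ran from 9.49 to 10.17 (median 9.99) and from 9.33 to 9.68 (median 9.47) at 30 weeks, and was 9.02, 9.58, 9.18, 9.49 and 9.18 in TACI-Ig kidneys. It differed by 0.63 (SE 0.13, adjusted p = 0.000958) and by 0.41 (SE 0.09, adjusted p = 0.00151); the lowest NZM2410 kidney of both subunits was replicate 3, which fell within the other groups. Auh, the hydratase of the next step, was 9.80, 10.29, 9.86, 10.23 and 9.72 in TACI-Ig kidneys against 10.05 to 10.58 (median 10.50), and differed by 0.47 (SE 0.12, adjusted p = 0.00581). From 30-week kidneys, which ran from 9.89 to 10.56 (median 10.20), its difference was 0.21 (SE 0.11, adjusted p = 0.116). Ivd, the isovaleryl-CoA dehydrogenase that precedes them, did not pass, at 0.21 (SE 0.14, adjusted p = 0.204) and 0.01 (SE 0.09, adjusted p = 0.904).

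On the valine side, Hibadh, which oxidizes hydroxyisobutyrate, had the smallest adjusted p of all members. It ran from 12.40 to 12.77 (median 12.68) in NZM2410 kidneys and from 12.04 to 12.32 (median 12.23) at 30 weeks, and was 12.03, 12.22, 11.997, 12.09 and 12.08 in TACI-Ig kidneys, with no overlap. The differences were 0.56 (SE 0.07, adjusted p = 3.77e-05) and 0.46 (SE 0.07, adjusted p = 3.52e-05), folds of 1.47 and 1.37. After quantile normalization again they fell to 0.24 (adjusted p = 0.00678) and 0.21 (adjusted p = 0.0128), and both still passed. Aldh6a1, the methylmalonate semialdehyde dehydrogenase, ran from 12.35 to 12.67 (median 12.57) and from 12.05 to 12.49 (median 12.37) at 30 weeks, was 12.04, 12.61, 12.01, 12.08 and 12.45 in TACI-Ig kidneys, and overlapped with both groups. Its differences of 0.32 (SE 0.11, adjusted p = 0.0255) and 0.22 (SE 0.07, adjusted p = 0.0163) became 0.01 and -0.02 after quantile normalization again and no longer passed, and that from TACI-Ig passed in 6 of the 11 fits that left out a kidney. Hibch, the hydrolase before Hibadh, differed by 0.11 (SE 0.15, adjusted p = 0.545) and -0.03 (SE 0.09, adjusted p = 0.792).

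Pcca and Pccb form propionyl-CoA carboxylase, which takes up the propionyl-CoA of valine and isoleucine. Pccb was 9.76, 10.62, 9.96, 10.11 and 9.75 in TACI-Ig kidneys, and ran from 9.96 to 10.64 (median 10.59) at 30 weeks and from 10.56 to 10.80 (median 10.75) in NZM2410 kidneys. It differed by 0.68 (SE 0.13, adjusted p = 0.000709) from TACI-Ig and by 0.23 (SE 0.10, adjusted p = 0.0501) from 30 weeks, just outside the threshold. Pcca was 10.25, 10.78, 10.25, 10.51 and 10.27 in TACI-Ig kidneys, ran from 10.31 to 10.90 (median 10.74) at 30 weeks and from 10.55 to 10.97 (median 10.90) in NZM2410 kidneys, and differed by 0.44 (SE 0.11, adjusted p = 0.00349) and 0.16 (SE 0.09, adjusted p = 0.139). Both subunits thus passed against TACI-Ig only, and TACI-Ig replicate 2 lay above the lowest NZM2410 kidney, replicate 3, for each. Acat1, the acetoacetyl-CoA thiolase of isoleucine and ketone body breakdown, was 11.33, 11.55, 11.20, 11.09 and 11.49 in TACI-Ig kidneys, ran from 11.38 to 11.54 (median 11.45) at 30 weeks and from 11.35 to 11.72 (median 11.62) in NZM2410 kidneys. It differed by 0.26 (SE 0.09, adjusted p = 0.0297) and 0.13 (SE 0.06, adjusted p = 0.0645). The call of Acat1 against TACI-Ig was lost after quantile normalization again (0.02, adjusted p = 0.848), and it passed in 4 of the 11 fits that left out a kidney. That of Pcca was lost as well after quantile normalization again (0.24, adjusted p = 0.0615).

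In the lysine route, 2 of 3 members passed as higher in each comparison, where 42.2% and 38.7% of the bright genes did. Gcdh ran from 11.55 to 11.87 (median 11.75) in NZM2410 kidneys and from 10.94 to 11.57 (median 11.39) at 30 weeks, and its TACI-Ig values are given above. It differed by 0.68 (SE 0.13, adjusted p = 0.000598) and 0.35 (SE 0.09, adjusted p = 0.00358). Aass, the enzyme that opens lysine breakdown, ran from 11.54 to 12.10 (median 11.80) and from 11.21 to 11.61 (median 11.47) at 30 weeks, and was 10.95, 11.67, 11.01, 10.81 and 11.49 in TACI-Ig kidneys. It differed by 0.61 (SE 0.15, adjusted p = 0.00371) and 0.34 (SE 0.09, adjusted p = 0.00375). Both genes overlapped between groups through a few kidneys. After quantile normalization again neither passed against 30 weeks (Gcdh 0.18, adjusted p = 0.102; Aass 0.16, adjusted p = 0.117), and against TACI-Ig Aass did not (0.36, adjusted p = 0.0544). Pipox, the pipecolate oxidase, did not pass, at 0.24 (SE 0.12, adjusted p = 0.0967) and 0.02 (SE 0.09, adjusted p = 0.894).

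In the glycine route, 3 of 6 members were higher than in TACI-Ig kidneys and 1 was higher than at 30 weeks, where 42.2% and 38.7% of the bright genes were. Gatm had the largest difference of all members, 1.45 (SE 0.37, adjusted p = 0.00481), a fold of 2.73. It ran from 12.30 to 13.04 (median 12.79) in NZM2410 kidneys, all above TACI-Ig replicates 1, 3, 4 and 5 and on both sides of replicate 2 at 12.72. From 30-week kidneys, of which 6 lay between 12.46 and 12.79, it differed by 0.37 (SE 0.27, adjusted p = 0.239). Gldc, the decarboxylase of the glycine cleavage system, varied widely, from 10.29 to 11.47 (median 10.44) in NZM2410 kidneys, from 9.14 to 10.94 (median 10.36) at 30 weeks, and was 9.67, 10.83, 8.76, 9.90 and 9.90 in TACI-Ig kidneys. It differed by 0.88 (SE 0.31, adjusted p = 0.0259) and 0.45 (SE 0.26, adjusted p = 0.147). The call of Gldc was lost after quantile normalization again (0.72, adjusted p = 0.0734), and it passed in 7 of the 11 fits that left out a kidney. Shmt1, the cytosolic enzyme that interconverts serine and glycine, ran from 9.87 to 10.20 (median 10.10) and from 9.33 to 10.03 (median 9.87) at 30 weeks, was 8.95, 9.91, 9.42, 9.55 and 9.11 in TACI-Ig kidneys, and differed by 0.68 (SE 0.14, adjusted p = 0.00121) and 0.28 (SE 0.10, adjusted p = 0.0261). Against 30 weeks it did not pass after quantile normalization again (0.19, adjusted p = 0.0997), and it passed in 11 of the 13 fits that left out a kidney. Dmgdh and Sardh, which strip methyl groups from dimethylglycine and sarcosine, and Dao, the oxidase of D-amino acids, did not pass, with differences from 0.15 to 0.26 against TACI-Ig and from -0.12 to 0.24 against 30 weeks.

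Proline, glutamate and arginine enzymes went apart. Aldh4a1 ran from 10.24 to 10.37 (median 10.32) in NZM2410 kidneys, with the smallest SD of all members in that group (0.04), and from 10.18 to 11.33 (median 11.18) at 30 weeks. Of the 30-week kidneys 6 lay above all NZM2410 kidneys and replicate 2, at 10.18, below them. The difference was -0.74 (SE 0.15, adjusted p = 0.000552), a fold of 0.597, and without that replicate it was -0.89 (adjusted p = 1.04e-07). From TACI-Ig kidneys it was -0.33 (SE 0.14, adjusted p = 0.0571), and it passed after quantile normalization again, at -0.50. Glud1, the glutamate dehydrogenase, ran from 11.98 to 12.18 (median 12.01) and from 11.58 to 11.89 (median 11.83) at 30 weeks, and was 11.59, 11.97, 11.30, 11.65 and 11.63 in TACI-Ig kidneys. It lay above both groups without overlap, by 0.41 (SE 0.10, adjusted p = 0.00271) and 0.27 (SE 0.06, adjusted p = 0.00164), and by 0.15 and 0.07 after quantile normalization again, when it passed in neither. Prodh, the proline dehydrogenase before Aldh4a1, differed by 0.25 (SE 0.16, adjusted p = 0.200) and 0.32 (SE 0.16, adjusted p = 0.0829), and Prodh2 by 0.31 (SE 0.16, adjusted p = 0.119) and -0.12 (SE 0.15, adjusted p = 0.481). Arg2 differed by -0.20 (SE 0.22, adjusted p = 0.442) and 0.11 (SE 0.26, adjusted p = 0.737).

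The sulfur enzymes differed from each other. Cth, which releases cysteine from cystathionine, ran from 11.61 to 12.07 (median 11.88) in NZM2410 kidneys and from 11.004 to 11.56 (median 11.42) at 30 weeks, and was 11.48, 11.55, 11.01, 11.30 and 11.41 in TACI-Ig kidneys, with no overlap. It differed by 0.52 (SE 0.10, adjusted p = 0.000915) and 0.50 (SE 0.09, adjusted p = 0.000268). Cbs, which makes cystathionine, differed by -0.01 (SE 0.14, adjusted p = 0.948) and -0.30 (SE 0.13, adjusted p = 0.0557). Against 30 weeks it passed as lower after quantile normalization again (-0.38, adjusted p = 0.0166). It also passed without 30-week replicate 2 (-0.38, adjusted p = 0.00567). None of the 6 aromatic members passed against TACI-Ig, with differences from -0.07 (Hpd) to 0.17 (Fah and Kmo). With the deposited values Hgd alone passed against 30 weeks. It ran from 11.80 to 12.18 (median 12.02) in NZM2410 kidneys and from 11.60 to 12.03 (median 11.70) at 30 weeks. The difference of 0.27 (SE 0.08, adjusted p = 0.00670) became 0.07 and did not pass after quantile normalization again. Under that setting Haao passed as lower than at 30 weeks (-0.18, adjusted p = 0.0482).

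Among kidneys of 1 group, Gatm varied most at 30 weeks (SD 0.71), in early remission (0.96) and in TACI-Ig kidneys (1.07), Hpd in late triple therapy kidneys (0.73) and Gldc in NZM2410 kidneys (0.49). The steadiest members were Acat1 at 30 weeks (0.05), Hibadh in early remission (0.05) and in TACI-Ig kidneys (0.09), Pipox in late triple therapy kidneys (0.05) and Aldh4a1 in NZM2410 kidneys (0.04). The median SD over members was 0.29 in TACI-Ig kidneys and 0.15 to 0.19 in the other groups.

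Markers of kidney cell types were scored beside the members, and their order of kidneys did not match that of the members in every group. Scores of 12 proximal tubule markers were -0.63, 0.15, -0.30, -0.06 and -0.59 in TACI-Ig replicates 1 to 5, the same order of kidneys as for the member scores, and ran from -0.45 (replicate 2) to 0.17 at 30 weeks and from -0.06 (replicate 3) to 0.31 in NZM2410 kidneys. They ran from -0.19 (replicate 2) to 0.28 (replicate 6) in early remission, where member scores were lowest in replicate 1 and highest in replicate 7. In late triple therapy kidneys they ran from -0.18 (replicate 11) to -0.01 (replicate 9). Member scores there were lowest in replicate 7 and highest in replicate 8. Of these 12 markers, 8 were higher in NZM2410 than in TACI-Ig kidneys and 4 than in 30-week kidneys, with median differences of 0.50 and 0.23. Of 7 markers of the loop and distal tubule, 6 were higher in NZM2410 kidneys in each comparison, with medians of 0.66 and 0.70, and of 5 collecting duct markers 2 and 4 were, with medians of 0.32 and 0.55. The members' own medians were 0.31 and 0.22. Of all genes, 28.6% were higher against TACI-Ig and 31.5% against 30 weeks, and of the bright genes 42.2% and 38.7%. Against early remission, none of the 12 proximal tubule markers passed in either late group, though all 12 had lower means in each. No gene at all passed there in TACI-Ig kidneys. At an unadjusted p under 0.05, 9 of the 12 were lower in TACI-Ig kidneys (8.52% of all genes), with a median difference of -0.41. In late triple therapy kidneys 6 were (3.81% of all genes), with a median of -0.21. Against 30 weeks, 5 were lower and 1 higher in TACI-Ig kidneys (9.67% and 10.7% of all genes), with a median of -0.40. Scores of 8 macrophage markers were high in several kidneys with low member scores: 1.39 in 30-week replicate 2, 1.02 in NZM2410 replicate 3, and 0.64 and 1.16 in TACI-Ig replicates 1 and 5, against -0.82 in TACI-Ig replicate 2. Their lowest and highest scores were -0.50 and 1.39 at 30 weeks, -0.78 and 0.55 in early remission, -0.42 and 0.90 in late triple therapy kidneys and -0.76 and 1.02 in NZM2410 kidneys. None of these 8 passed in any of the 8 comparisons. Scores of 4 markers of tubular injury were highest in the same kidneys in 3 groups: 0.91 in 30-week replicate 2, 1.16 in TACI-Ig replicate 5 and, in NZM2410 kidneys, in replicate 3, where the other 5 ran from -1.04 to -0.02. Their range was -0.59 to 0.39 in early remission and -0.55 to 0.70 in late triple therapy kidneys, where the highest was replicate 8, the kidney with the highest member score of that group. The part of cell content in the differences of the members was not tested.

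**Figure D5:**
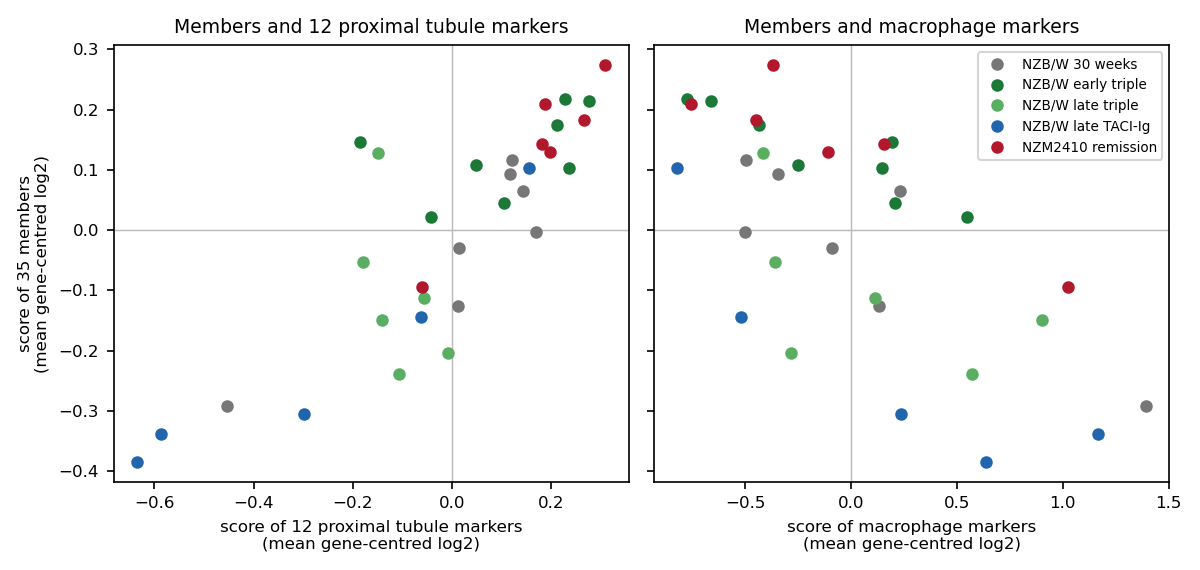
Each point is a kidney, with the score of 35 members on the vertical axis against the score of 12 proximal tubule markers (left) or 8 macrophage markers (right), all as mean gene-centred log2 values. The 3 kidneys with the lowest proximal tubule scores, TACI-Ig replicates 1 and 5 and 30-week replicate 2, also have low member scores and macrophage scores of at least 0.64.

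A further 67 measured genes of amino acid catabolism, listed apart from the members were examined in the same comparisons. In early remission against 30 weeks none passed and 58 of 67 had higher means (59.6% of all genes), with a median of 0.12. Between late and early triple therapy kidneys 2 passed, both lower (0.0697% of all genes): Gstz1, the isomerase between Hgd and Fah (-0.32, SE 0.06, adjusted p = 0.0454), and Echs1, an enoyl-CoA hydratase of valine breakdown and fatty acid oxidation (-0.38, SE 0.07, adjusted p = 0.0454). None passed in TACI-Ig kidneys against 30-week or early kidneys. In NZM2410 kidneys, 29 were higher and 16 lower than in TACI-Ig kidneys, and 23 higher and 18 lower than at 30 weeks. The shares of all genes were 28.6%, 30.9%, 31.5% and 31.3%, and those of the bright genes 42.2%, 8.56%, 38.7% and 12%. How many of the 67 read that bright was not counted. The largest higher difference in both was that of Bcat2, the mitochondrial branched-chain aminotransferase that precedes the dehydrogenase, at 0.98 (SE 0.17, adjusted p = 0.000278) and 0.92 (SE 0.11, adjusted p = 3.78e-06). Oat, the ornithine aminotransferase, was higher by 0.80 and 0.51, and Ddc, an aromatic amino acid decarboxylase, by 0.76 and 0.49. The most negative were those of Hmgcll1, a lyase related to that of leucine breakdown, at -0.97 and -0.86, on a dim probe set with group means of 5.43 to 6.40. Dhtkd1, of the late lysine route, differed by -0.71 and -0.73.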

How the data were processed

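RNA from saline-perfused whole kidneys was hybridised to Affymetrix mouse arrays. The authors deposited 1 table of log2 signals made by RMA, per the submitters' notes, normalized and batch-corrected together per the methods, with batches not named and the RMA version not given in the sources used here. The wider spread of NZM2410 arrays in the deposited table enters every difference from them. The number of arrays limits the precision.

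The table held 16539 probe sets: 64 controls and 695 without a name were left out, and 15780 named genes were tested, 15752 of them found in RefSeq by identifier. For each of 8 comparisons, linear models with moderated variances (limma 3.58.1 under R 4.3.3, functions lmFit then eBayes) were fitted to its groups alone, with two-sided p-values adjusted by Benjamini-Hochberg over 15780 genes and a threshold of 0.05. "Passed", "called", "higher" and "lower" refer to this test. Nothing in the labels states that samples came from separate animals, so p-values measure the spread between these samples. Members, marker lists, the 67 further genes and the rule for named genes were chosen with earlier results of these data known. By that rule any member may be named, members that passed are given per kidney, and the extremes of each comparison and of the SD are named; of the 67 genes, only those that passed, at most 5 in each direction. Scores were averaged with Python 3.11.15, numpy 2.4.6 and pandas 2.3.3. Motifs were matched in RefSeq start regions (GRCm38.p6).

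In simulated data on 15780 genes, a small share of genes was shifted, with normal noise drawn for each gene independently. Shifts of 0.5 on the log2 scale were recovered in 62% to 87% of the shifted genes and shifts of 1 in 92% to 99%, over 8 comparisons. No simulated kidney stood apart in many genes at once, as some real ones did, so recovery in the real data may be lower. Alternatives were a joint fit, quantile normalization again, median centring, weights per array, a robust prior with a trend on intensity, leaving out dim genes (10520 left), the replicate number as a block, letters in sample names as a covariate or alone, leaving out the pair with the same mouse code, the study's filter (fold of at least 1.4 or at most 0.7 at 0.001, here with limma's adjusted p in place of the q-value of SAM that the study used), and leaving out each kidney.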

Additional observations from a re-analysis of the deposited data

Results flagged for a closer look

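Kidneys that stood apart from the rest of their group were looked for by the gap of the highest or lowest value to its neighbour, as a share of the group's range (Dixon's test at its 95% limit, groups of 5 to 8). Of 210 combinations of gene or score and group, 40 stood apart, where chance gives about 1 in 20, and these are not independent, since most come from a few kidneys. In each case below the log2 value of the kidney is followed by the range of the others of its group.

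In 30-week replicate 2, the kidney with the highest macrophage score of its group, these values were Gcdh at 10.94 (11.34 to 11.57), Mccc1 at 10.60 (10.91 to 11.13), Pcca at 10.31 (10.65 to 10.90) and Pccb at 9.96 (10.45 to 10.64), all low. Further low values in this kidney were Aldh4a1 at 10.18 (10.94 to 11.33), Aldh6a1 at 12.05 (12.35 to 12.49), Pipox at 11.01 (11.35 to 11.60) and Gatm at 10.77 (12.46 to 12.79). Kmo was high at 10.51 (9.91 to 9.94). Its scores were low for the glycine route, at -0.59 (-0.02 to 0.35), and for proline, glutamate and arginine, at -0.29 (-0.02 to 0.14).

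In NZM2410 replicate 3, all of the values that stood apart were low: Fah at 11.41 (11.79 to 11.92), Ivd at 10.95 (11.22 to 11.36), Mccc1 at 10.95 (11.23 to 11.35), Pcca at 10.55 (10.87 to 10.97) and Auh at 10.05 (10.46 to 10.58). The others were Acat1 at 11.35 (11.60 to 11.72), Kmo at 9.57 (9.99 to 10.24), Cbs at 8.64 (9.11 to 9.27) and Dmgdh at 9.79 (10.32 to 10.58). Its branched-chain score was -0.0359 (0.21 to 0.33). Without this kidney, 19 members instead of 13 were higher than at 30 weeks, while 31.5% of all genes were, as with it.

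Late triple therapy replicate 8 was high in Aass at 12.002 (11.06 to 11.35), Mccc1 at 11.16 (10.65 to 10.83), Glud1 at 12.24 (11.54 to 11.70) and Arg2 at 10.02 (8.78 to 9.13). Its scores were high for the lysine route, at 0.11 (-0.24 to -0.14), and for proline, glutamate and arginine, at 0.45 (-0.23 to -0.03). In replicate 11 of that group Aldh6a1 was at 12.42 (12.25 to 12.30). Early remission replicate 2 was high in Auh at 10.75 (10.13 to 10.34), Dmgdh at 10.78 (10.24 to 10.47) and Arg2 at 10.48 (7.67 to 8.59) and low in Gatm at 9.88 (12.32 to 12.70). Early remission replicate 8 was high in Dao at 11.58 (10.80 to 11.08) and Cbs at 10.24 (9.42 to 9.72) and low in Cth at 11.30 (11.55 to 11.75), and replicate 1 was low in Pccb at 10.40 (10.54 to 10.61). Among TACI-Ig kidneys, replicate 1 was low in Qdpr at 10.87 (11.41 to 11.49), replicate 4 was high in Haao at 10.78 (10.19 to 10.23), and replicate 2 was high in Pipox at 11.71 (10.99 to 11.16) and in the lysine score, at 0.21 (-0.49 to -0.33).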

How the results depend on the processing

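Among counts of members called, 298 lay within 1.5 times the reported count over the alternatives and 38 did not. In most comparisons and directions the reported count was 0, so many of the 298 set 0 against 0 and do not measure stability. Among differences of named genes, 834 had the same direction and side of the threshold, 66 missed the threshold, 7 newly passed it and 3 changed sign. The causes were not tested. In early remission against 30 weeks, array weights gave 4 higher members (Fah, Hgd, Hpd and Kmo), where 0.494% of all genes were higher. Between late and early triple therapy kidneys, 0 members were lower in the joint fit, after quantile normalization again, with the replicate block and with the study's filter, 1 with the intensity trend and robust prior and 1 with name letters as a covariate, and 9 with array weights; leaving out each kidney gave 0 to 5. In TACI-Ig kidneys against early remission, 15 were lower in the joint fit and 9 with array weights, and 0 to 17 without each kidney; against 30 weeks the range was 0 to 7. In both, the high values came without TACI-Ig replicate 2. In NZM2410 against TACI-Ig kidneys, the study's filter left 7 higher, where 8.25% of all genes were. In that comparison 1 was lower (Aldh4a1) after quantile normalization again, median centring or array weights, and 0 to 1 without each kidney. Against 30 weeks, quantile normalization again gave 6 higher and 3 lower, and median centring and array weights gave 2 lower. The study's filter left 1 higher, where 7.45% of all genes were, and leaving out each kidney gave 1 to 2 lower. The sign changed for Aldh6a1 in NZM2410 kidneys against 30 weeks after quantile normalization again (-0.0212), and for Arg2 in late triple therapy kidneys against 30 weeks with the replicate block (-0.16) and without late replicate 8 (-0.0499; range over kidneys left out -0.0499 to 0.268). The mean proline, glutamate and arginine score of NZM2410 kidneys was -0.12 after quantile normalization again and 0.0929 as a median over genes.

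Replicate numbers did not pair the kidneys: correlations of same-numbered deviations ran from -0.71 to 0.34. Blocking on the replicate number changed the count of members called by over 1.5 times only between late and early triple therapy kidneys, as given. Late triple therapy and TACI-Ig kidneys share no replicate number, so that comparison alone had no blocked fit. Unnamed batches, and for NZM2410 kidneys strain and treatment, limit what the differences can be assigned to.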
